A study of Mus musculus with 4 samples.

Results

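The genes described here build and use the meiotic chromosome: Sycp1, Sycp2, Sycp3 and Syce1 of the synaptonemal complex, Hormad1 of the chromosome axis, Stag3 and Smc1b of meiotic cohesin, Dmc1 and Tex15 of recombination, and Meioc, a regulator of the meiotic programme. They were taken by gene symbol, as all probe sets that the platform annotation gives to 1 of these symbols alone, which made 11 probe sets of 10 genes out of 34958 probe sets of 18194 genes. The list was put together with the differences between the arrays of these same data known, so those differences are given as a description, with no test.

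The cells were murine embryonic stem cells of the line CM7/1, which overexpress either Hey1 or Hey2, repressors of the basic helix-loop-helix class that act downstream of Notch. The cells with each factor are referred to as the Hey1 and the Hey2 line. The groups were the Hey1 line labelled as induced with 1000 ng/ml doxycycline for 48 h, the uninduced Hey1 line, the Hey2 line labelled as induced in the same way, and the uninduced Hey2 line, with 1 Affymetrix array in each. Uninduced cells are labelled as controls and carry the same label of an overexpressed factor, and doxycycline is present only in the induced groups, so the drug and the factor cannot be told apart. The sources used here do not say whether a line was 1 clone or a pool. All differences below are of 2 arrays, on the log2 scale, with no replicate check and no p-value.

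In meiosis, sister chromatids are held by a cohesin in which Smc1b and Stag3 take the place of mitotic subunits, and their loops are anchored on an axis that holds Sycp2, Sycp3 and Hormad1. Sycp1 then zips the paired axes together around a central element that contains Syce1, while breaks in the DNA are repaired from the homologous chromosome by the recombinase Dmc1. Meioc protects this programme at meiotic entry together with the RNA-binding protein Ythdc2. In embryonic stem cells many such germline genes are held low by DNA methylation and by a Polycomb complex that contains E2f6, Mga and Max.

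Promoter sequences are shown for those members above the level filter given below that were at least 1.5-fold higher in the array labelled induced of at least 1 line and for which RefSeq (GRCm38.p6) gave a window. Each window runs from 250 bases before an annotated start to 50 bases after it, 5′ to 3′ on the gene's strand. Capitals mark matches, on either strand, to 4 short sequences. These were CACGTG, an E-box bound by Max with its partners and by Hey factors, CACGCG, a form bound by Hey factors, and TTCCCGC and GGCGGGA, forms of the E2F site that can overlap each other by all but 1 base.
Sycp3, chr10:88459337-88459636, plus strand: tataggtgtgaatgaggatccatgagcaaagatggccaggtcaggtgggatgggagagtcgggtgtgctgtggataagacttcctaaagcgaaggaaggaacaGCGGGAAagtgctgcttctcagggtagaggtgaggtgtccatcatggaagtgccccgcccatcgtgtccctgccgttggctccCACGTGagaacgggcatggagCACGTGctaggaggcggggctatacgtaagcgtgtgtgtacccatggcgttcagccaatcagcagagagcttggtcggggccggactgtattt
Hormad1, chr3:95559427-95559726, plus strand: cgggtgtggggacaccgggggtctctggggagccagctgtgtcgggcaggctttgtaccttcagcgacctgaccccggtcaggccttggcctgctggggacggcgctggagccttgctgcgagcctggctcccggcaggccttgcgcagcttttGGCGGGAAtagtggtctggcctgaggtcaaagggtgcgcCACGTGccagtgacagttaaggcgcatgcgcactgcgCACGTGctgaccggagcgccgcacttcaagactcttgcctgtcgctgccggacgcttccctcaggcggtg
Stag3, chr5:138280259-138280558, plus strand: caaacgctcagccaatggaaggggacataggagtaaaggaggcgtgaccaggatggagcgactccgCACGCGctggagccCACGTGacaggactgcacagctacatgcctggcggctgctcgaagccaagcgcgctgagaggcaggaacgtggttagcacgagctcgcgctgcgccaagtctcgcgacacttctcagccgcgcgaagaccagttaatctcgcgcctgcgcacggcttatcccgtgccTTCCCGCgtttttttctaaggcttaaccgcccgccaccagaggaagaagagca
Dmc1, chr15:79605060-79605359, minus strand: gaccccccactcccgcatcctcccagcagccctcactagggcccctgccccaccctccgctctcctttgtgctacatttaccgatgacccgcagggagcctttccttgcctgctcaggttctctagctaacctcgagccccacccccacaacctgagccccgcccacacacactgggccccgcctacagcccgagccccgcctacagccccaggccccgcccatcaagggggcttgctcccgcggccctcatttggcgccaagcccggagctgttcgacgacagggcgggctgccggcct
Meioc, chr11:102665335-102665634, plus strand: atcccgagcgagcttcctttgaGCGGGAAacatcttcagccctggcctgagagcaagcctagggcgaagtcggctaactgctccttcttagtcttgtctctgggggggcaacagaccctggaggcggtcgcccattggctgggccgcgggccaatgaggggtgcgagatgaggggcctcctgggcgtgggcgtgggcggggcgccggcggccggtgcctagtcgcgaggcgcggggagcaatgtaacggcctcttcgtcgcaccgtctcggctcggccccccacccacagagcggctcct

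RefSeq windows were found for 9 of the 10 genes, 10 windows in all, because Hormad1 has 2 that overlap almost entirely. Tex15 had none. CACGTG was present in 5 of the 10 windows (4 genes: Sycp1, Sycp3, Hormad1 and Stag3), beside 7.15% of 32851 windows of all genes. TTCCCGC was present in 6 of the 10 (5 genes: Sycp3, Hormad1, Stag3, Smc1b and Meioc), beside 4.60% of all windows. CACGCG was in the windows of Syce1 and Stag3 (9.27% of all windows) and GGCGGGA in those of Hormad1 alone (11.3%). Member windows held between 10 and 30 CG dinucleotides against a median of 7 over all windows. Among the 14281 windows with at least 10 of them, CACGTG was in 10.9%, TTCCCGC in 9.20%, CACGCG in 20.1% and GGCGGGA in 23.4%. CACGCG, in 2 of the 10 member windows, was thus near its share among such windows. The 2 member windows with GGCGGGA are the overlapping ones of Hormad1 and hold the same site, so they stand for 1 gene. The cut at 10 is the lowest count of a member, that of Sycp2, and the other members hold more. These shares are therefore not matched to each member. A match is a match of letters and is no evidence of binding, and the windows of Dmc1 and Sycp2 have none.

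**Figure D1:**
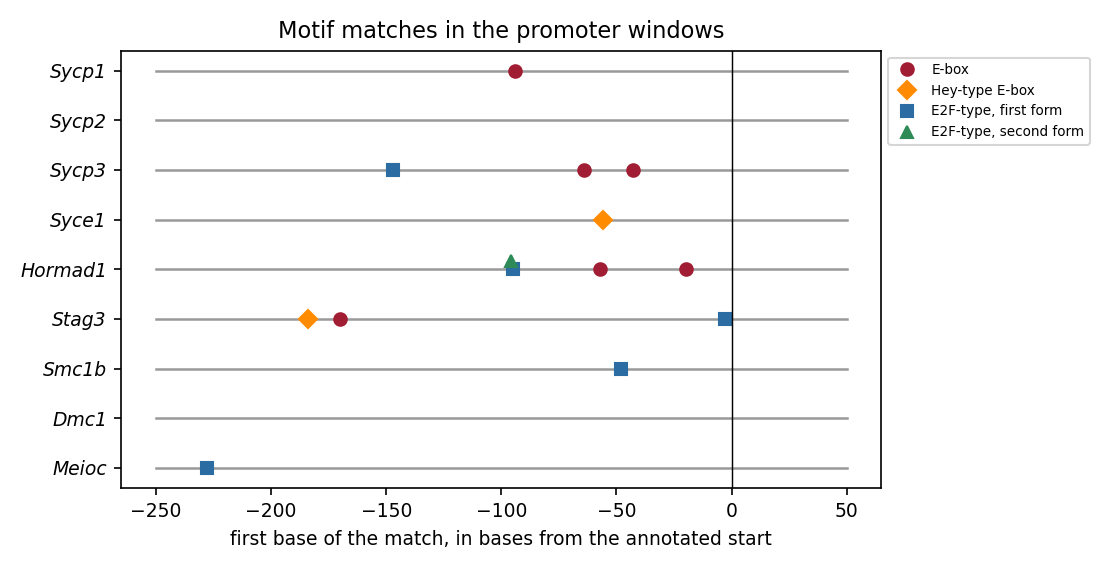
Position of motif matches in 1 promoter window of each of the 9 genes with a RefSeq window. The horizontal axis is the first base of a match in bases from the annotated start, each grey line is a window, and the markers are the E-box CACGTG, the Hey-type form CACGCG and both E2F-type forms. The 2 E-box matches of Sycp3 and the 2 of Hormad1 lie within 64 bases before the start, and the windows of Sycp2 and Dmc1 are empty.

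Embryonic stem cell identity was clear in all 4 arrays. All 8 markers of these cells, Pou5f1, Sox2 and Nanog among them, lay between 10.89 and 14.96 on the log2 scale. Of 9 fibroblast markers 7 were below the array median of 6.05 in every array, as were 7 of 10 spermatocyte and spermatid markers, among them Tnp1 and Tnp2. The introduced genes did not show at their own probe sets. Hey1 read 6.51 in the array labelled induced and 6.73 in the uninduced array of the Hey1 line, and Hey2 read 4.34 and 4.25 in those of the Hey2 line. The sources used here do not say what these probe sets read of the introduced transcripts, so every direction is that of the arrays as labelled. The scaled median absolute deviation of the difference over the 12098 genes compared was 0.16 for the Hey1 line and 0.22 for the Hey2 line.

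Meiotic genes were mostly higher in the arrays labelled induced. Tex15 was past 2-fold in both lines, Sycp3 in the Hey1 line and Meioc in the Hey2 line. For Sycp3 and Meioc the line depends on which uninduced array is the reference. Against the uninduced array of the other line, Sycp3 had 0.87 for the Hey1 and 0.84 for the Hey2 line, and Meioc 2.11 and 0.43. A gene was compared if its highest value reached the array median of 6.05. That held for 8 members, of which 6 were at or above it in all 4 arrays and 2 (Tex15 and Smc1b) in 3. Sycp1 and Sycp2 were below it in all 4. At least 2-fold higher were 2 of the 8 in the Hey1 line (Tex15 and Sycp3), where 0.438% of all genes were, and 2 of the 8 in the Hey2 line (Tex15 and Meioc), where 0.686% were. Tex15 alone of the 8 passed in both, as did 0.0992% of all genes. No member was 2-fold lower in either line, as 0.0331% of all genes were in the Hey1 and 0.240% in the Hey2 line. At 1.5-fold, 4 of the 8 were higher in the Hey1 line (Dmc1, Meioc, Sycp3 and Tex15, beside 1.84% of all genes) and 4 in the Hey2 line (Hormad1, Meioc, Stag3 and Tex15, beside 3.02%), with Meioc and Tex15 in both (0.769%). With the direction only, 7 of the 8 were higher in both lines, beside 28.1% of all genes. The median difference of the 8 members was 0.56 for the Hey1 and 0.57 for the Hey2 line, against -0.01 and -0.02 over all genes compared. With Sycp1 and Sycp2, which did not pass the filter, it was 0.71 and 0.54 over the 10. These counts repeat what the members were chosen on and support nothing further.

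**Figure D2:**
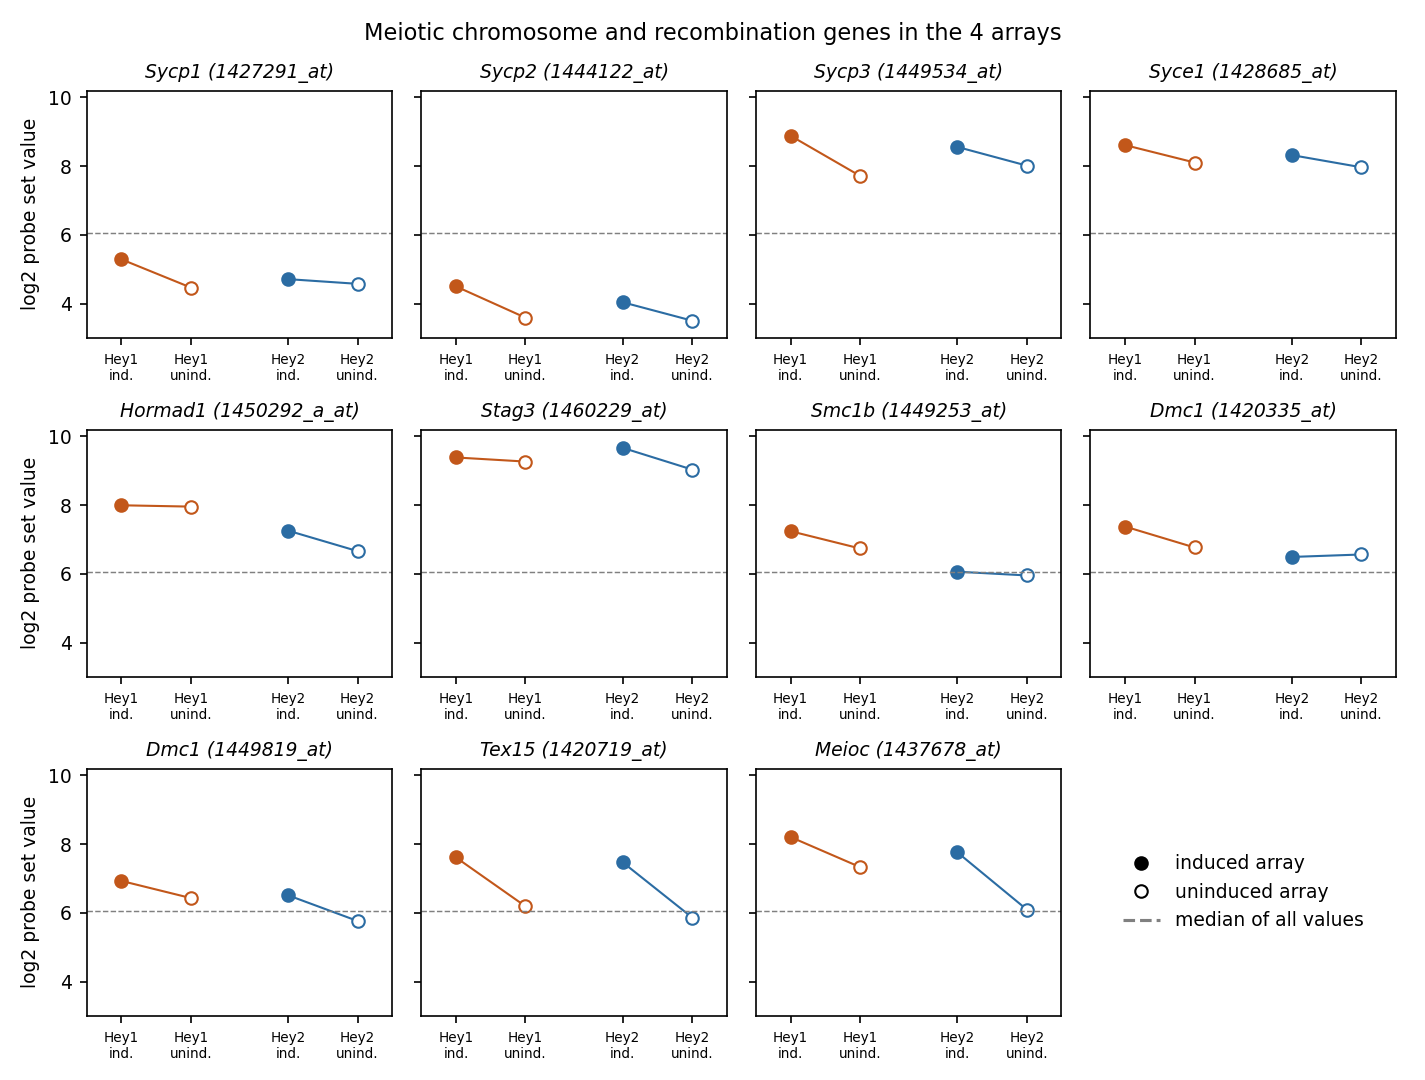
Log2 values of the 11 probe sets of the 10 genes in each array. Filled circles are arrays labelled induced and open circles uninduced arrays, orange for the Hey1 line and blue for the Hey2 line, with 1 array per point and the array median of 6.05 as a dashed line. The filled circle is above the open one in all panels of the Hey1 line and in all but 1 of the Hey2 line, that of the Dmc1 probe set 1420335_at.

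Tex15, a large germ cell protein needed for the repair of meiotic breaks and, in fetal germ cells, for silencing of transposons, had the largest difference of the members in the Hey1 line. Its probe set 1420719_at read 7.61 in the array labelled induced and 6.19 in the uninduced array of the Hey1 line, a 2.68-fold difference (1.42 on the log2 scale). In the Hey2 line it read 7.47 in the array labelled induced and 5.87 in the uninduced array, a 3.04-fold difference (1.61). Both arrays labelled induced were therefore above both uninduced arrays, and the uninduced values lay near the array median, 1 above it and 1 below. Among all genes compared the difference ranked 21st in the Hey1 line and 6th in the Hey2 line.

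Meioc, which keeps germ cells on the meiotic programme, read 8.21 in the array labelled induced and 7.33 in the uninduced array of the Hey1 line at its single probe set 1437678_at (0.87 on the log2 scale). In the Hey2 line it read 7.76 in the array labelled induced and 6.10 in the uninduced array, a 3.17-fold difference (1.66), the 5th largest of that line. The uninduced Hey2 array stood lowest of the 4. Against the uninduced Hey1 array, the Hey2 array labelled induced was higher by 0.43 only. The size of the Hey2-line difference thus depends on which uninduced array is the reference. With 1 array per group, a difference of the lines and an error of an array cannot be told apart.

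Sycp3, the structural protein of the axial and lateral elements, was the member of the synaptonemal complex with the largest difference. It read 8.88 in the array labelled induced and 7.72 in the uninduced array of the Hey1 line, a 2.25-fold difference (1.17). In the Hey2 line it read 8.56 and 8.02 in those arrays (0.54). Both arrays labelled induced were above both uninduced arrays, and in contrast to Meioc the uninduced Hey1 array was the lowest of the 4. Against the uninduced array of the other line the differences were 0.87 for the Hey1 line and 0.84 for the Hey2 line.

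Syce1, a central element protein, also had both arrays labelled induced above both uninduced arrays, with smaller steps. It read 8.61 in the array labelled induced and 8.11 in the uninduced array of the Hey1 line, and 8.32 and 7.97 in those of the Hey2 line, differences of 0.51 and 0.35. Sycp2, which forms the lateral elements with Sycp3, stayed dim. It read 4.50 in the array labelled induced and 3.59 in the uninduced array of the Hey1 line, and 4.04 and 3.51 in those of the Hey2 line. Sycp1, the transverse filament, read 5.29 and 4.47 for the Hey1 line and 4.71 and 4.58 for the Hey2 line, in the same order of arrays. For Sycp1 and Sycp2 all values lie below the array median, so the sizes of their differences, 0.82 and 0.91 in the Hey1 line, are uncertain.

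Hormad1, an axis protein that promotes break formation and monitors synapsis, separated the lines more than the treatments. It read 8.00 in the array labelled induced and 7.96 in the uninduced array of the Hey1 line, a difference of 0.04. In the Hey2 line it read 7.26 in the array labelled induced and 6.66 in the uninduced array (0.60). Both Hey1-line arrays were above both Hey2-line arrays.

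Among the cohesin genes, Stag3 was the member with the least spread over the 4 arrays, 0.63. It read 9.39 in the array labelled induced and 9.27 in the uninduced array of the Hey1 line, and 9.67 and 9.03 in those of the Hey2 line, differences of 0.12 and 0.63. Smc1b read 7.24 in the array labelled induced and 6.74 in the uninduced array of the Hey1 line (0.50). In the Hey2 line it read 6.06 and 5.96 (0.11), at the array median, and both Hey2-line arrays were below both Hey1-line arrays.

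Dmc1, the meiosis-specific recombinase of strand exchange, is the only member with 2 probe sets, and they disagreed in the Hey2 line. Probe set 1420335_at, the brighter, read 7.38 in the array labelled induced and 6.77 in the uninduced array of the Hey1 line (0.61). In the Hey2 line it read 6.49 and 6.56 (-0.07). Probe set 1449819_at read 6.93 and 6.43 for the Hey1 line (0.50) and 6.51 and 5.76 for the Hey2 line (0.75). The Hey1-line difference was alike at both probe sets, while the Hey2-line difference changed sign between them. Both are annotated to the same transcript record.

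**Figure D3:**
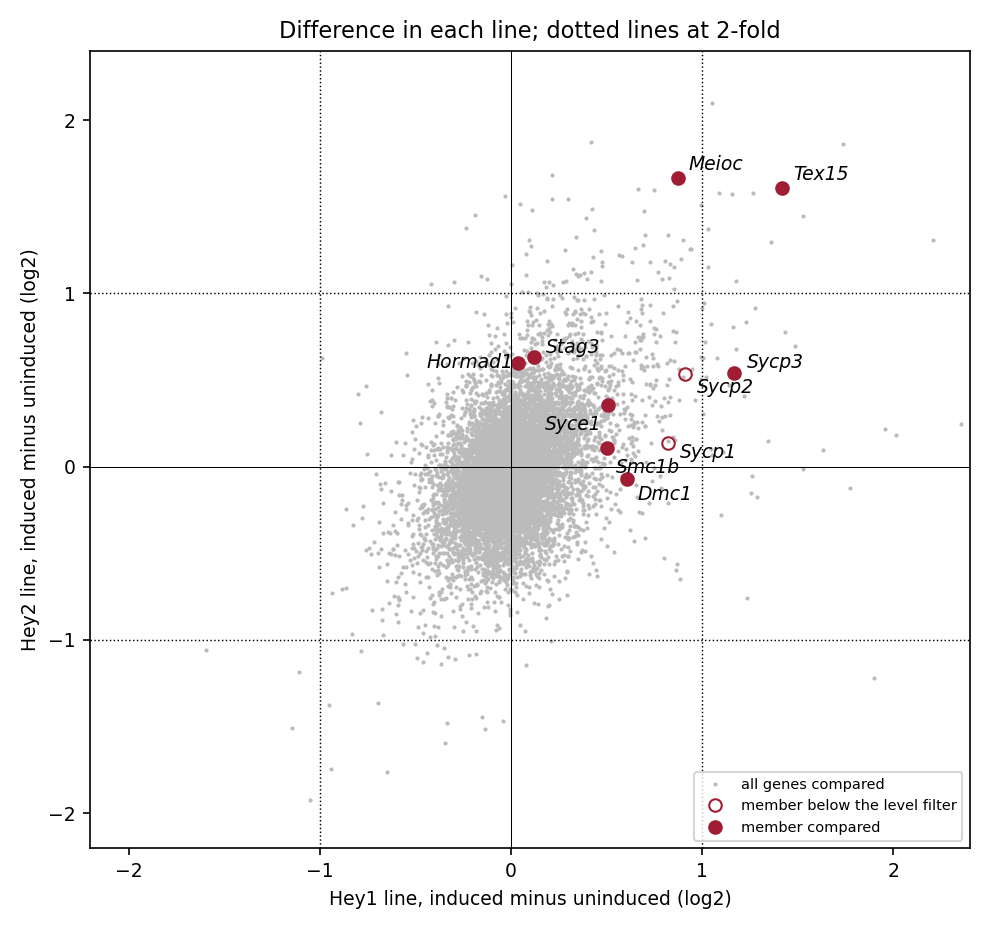
Difference within the Hey2 line (vertical axis, labelled induced minus uninduced) against that within the Hey1 line (horizontal axis), both log2, for all 12098 genes compared (grey; 8 lie outside the frame) and the 10 members (red; open where below the level filter). Dotted lines mark 2-fold. Tex15 alone of the members lies past both, Meioc past that of the Hey2 line and Sycp3 past that of the Hey1 line.

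With 1 array per group, the size of a member's difference was not the same in both lines. Over all genes compared, the Hey2-line difference minus the Hey1-line difference had a scaled median absolute deviation of 0.21. The Hey1-line difference was the larger for 6 of the 10 genes, by 0.68 for Sycp1 and Dmc1 and 0.62 for Sycp3. Sycp1 did not pass the level filter. For Dmc1 this held at the brighter probe set only, and at the other the Hey2-line difference was the larger by 0.25. The Hey2-line difference was the larger for 4, by 0.79 for Meioc, 0.56 for Hormad1, 0.51 for Stag3 and 0.19 for Tex15. No member's differences stood 2-fold apart between the lines, where 0.372% of all genes were that far apart towards the Hey1 line and 0.298% towards the Hey2 line. No residual is left for a test once the 4 arrays are used in this way.

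Single members differed in level between the lines. The Hey1 array labelled induced was the highest of the 4 for 9 of the 10 genes, all but Stag3, while it was the highest for 23.0% of all genes compared. The uninduced Hey2 array was the lowest for 7 of the 10, while it was the lowest for 26.7% of all genes. The members were chosen with their differences within the lines known. The highest and lowest arrays are partly fixed by that, so the shares of all genes are no yardstick for these counts. The median of the 8 members compared, Hey2 minus Hey1, was -0.28 for the uninduced arrays and -0.38 for the arrays labelled induced. Over all genes compared it was 0.03 and -0.02, with a scaled median absolute deviation of 0.29 and 0.25. Between the uninduced arrays, Hormad1 differed by -1.29 (Hey2 minus Hey1) and Meioc by -1.23, so that 2 of the 8 members compared had Hey2-line values lower by 2-fold or more, as had 1.13% of all genes. No member was 2-fold higher in the uninduced Hey2 line, beside 0.827% of all genes. Smc1b differed by -0.78 there. Between the arrays labelled induced, Smc1b differed by -1.18, Dmc1 by -0.88 at its brighter probe set and Hormad1 by -0.74, and Smc1b was the only member of the 8 whose Hey2-line value was lower by 2-fold or more (0.835% of all genes), with none higher by as much (0.777%). Meioc was closer there, at -0.44, and Tex15 differed little, by -0.14, against -0.33 between the uninduced arrays. These comparisons share their arrays with those within the lines.

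**Figure D4:**
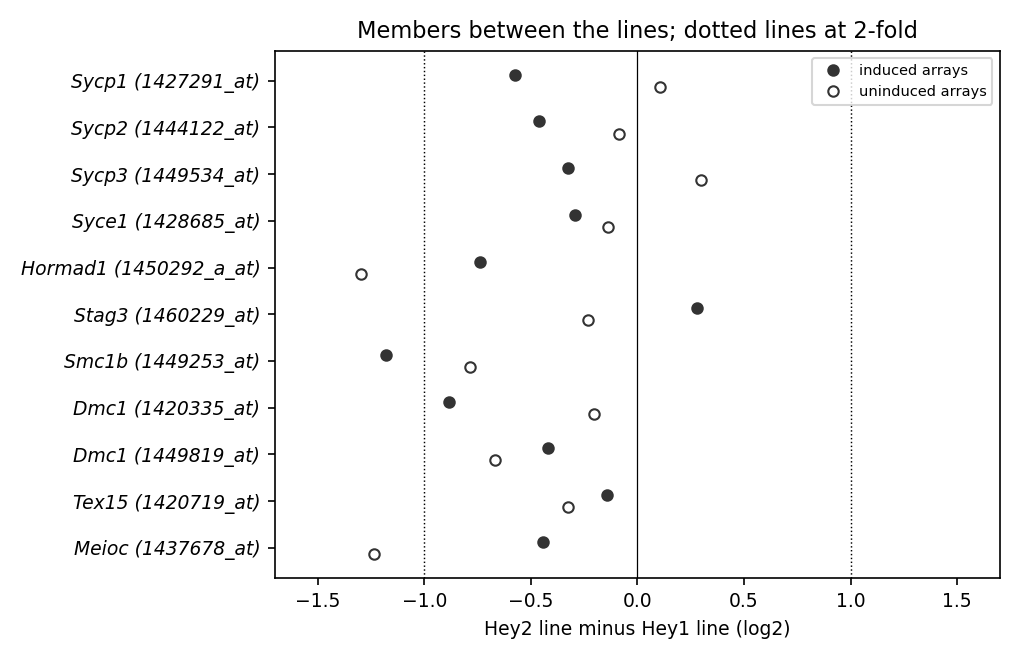
Hey2 line minus Hey1 line on the log2 scale for each of the 11 probe sets, between the arrays labelled induced (filled) and between the uninduced arrays (open), with dotted lines at 2-fold. Open circles of Hormad1 and Meioc and the filled circle of Smc1b lie past 2-fold on the side of lower values in the Hey2 line.

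Other genes of meiosis were grouped by role, and 45 of them were named on the array, the 10 members included. Of the 35 that are no members, 24 were compared. Of the 24, 0 were at least 2-fold higher in the Hey1 line, and 2 (Tex11 and Meiob) were so in the Hey2 line, beside 0.438% and 0.686% of all genes, and none were 2-fold lower. Their median difference was 0.13 for the Hey1 and 0.15 for the Hey2 line, and 14 of the 24 were higher in both lines, beside 28.1% of all genes. The lists were drawn up with earlier results of these data known. Tex11 and Meiob passed the level filter only through arrays labelled induced, so their count beside that of all genes supports nothing further.

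Tex11, an X-linked gene for crossover formation, had the largest Hey2-line difference of the 24. It read 6.58 in the array labelled induced and 5.89 in the uninduced array of the Hey1 line (0.69), and 6.18 and 4.71 in those of the Hey2 line (1.48). Tex11 thus reached the array median only in the arrays labelled induced. Meiob, a single-strand DNA binding protein of meiotic recombination, read 5.69 and 5.33 for the Hey1 line (0.36) and 6.30 and 5.20 for the Hey2 line (1.11), and so reached the array median only in the Hey2 array labelled induced. Dazl, an RNA-binding protein that licenses germ cells for meiosis, was higher in both lines without reaching 2-fold. It read 8.16 in the array labelled induced and 7.37 in the uninduced array of the Hey1 line (0.79), and 7.38 and 6.49 in those of the Hey2 line (0.89). Its other probe set had 0.45 and 0.81.

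The synaptonemal list held 13 genes on the array, of which 9 were compared. Of the 9, 8 were higher in both lines, beside 28.1% of all genes. Among these, 3 (Sycp3, Syce1 and Hormad1) are members chosen on these differences. The remaining gene of the 9, Hormad2, was lower in both, by -0.13 in the Hey1 and -0.11 in the Hey2 line. Values of other genes are those of the probe set with the highest mean unless said otherwise. Syce3, a central element gene, had 0.53 and 0.54, and the central element gene Six6os1, named 4930447C04Rik on the array, had 0.56 and 0.47 in the Hey1 and Hey2 lines. Its other probe sets had 0.64 and 0.37, and 0.53 and -0.12, so its Hey2-line direction depended on the probe set. Syce2 (0.05 and 0.05), a central element gene, and the axis-remodelling ATPase gene Trip13 (0.19 and 0.15) were well above the array median in all arrays. The other probe sets of Trip13 had 0.10 and 0.21, and -0.41 and 0.31. The gene of the break-forming enzyme, Spo11, was below the array median in all arrays, at 4.36 and 4.36 for the Hey1 line and 4.37 and 4.46 for the Hey2 line. Rec114, a partner in break formation, had 0.19 for the Hey1 and 0.79 for the Hey2 line, and 0.39 and 1.01 at its other, dimmer probe set. Partners of Dmc1 in strand exchange, Psmc3ip (0.01 and -0.03) and Mnd1 (-0.10 and -0.04), were well above the array median and differed by less than the spread over all genes. The entry factor Stra8 had 0.32 and -0.18, and Ythdc2, the partner of Meioc, 0.22 and 0.15. Rec8, the meiotic kleisin, had -0.12 and 0.18.

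Mitotic counterparts of these genes, 14 in all and all compared, had medians of 0.04 for the Hey1 and 0.11 for the Hey2 line, and 7 were higher in both, beside 28.1% of all genes. Of the 14, 1 was at least 2-fold higher, Brca2 in the Hey2 line (0.686% of all genes), a gene of recombinational DNA repair. Brca2 read 10.65 and 10.65 in the arrays of the Hey1 line, and 10.75 in the array labelled induced and 9.59 in the uninduced array of the Hey2 line (1.16). As for Meioc, the uninduced Hey2 array was the lowest of the 4. The cohesin genes Smc3 (0.15 and 0.77) and Stag2 (0.04 and 0.56) also had their lowest values in the uninduced Hey2 array. Their other probe sets had 0.25 and 0.35 for Smc3 and 0.17 and 0.56 for Stag2.

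**Figure D5:**
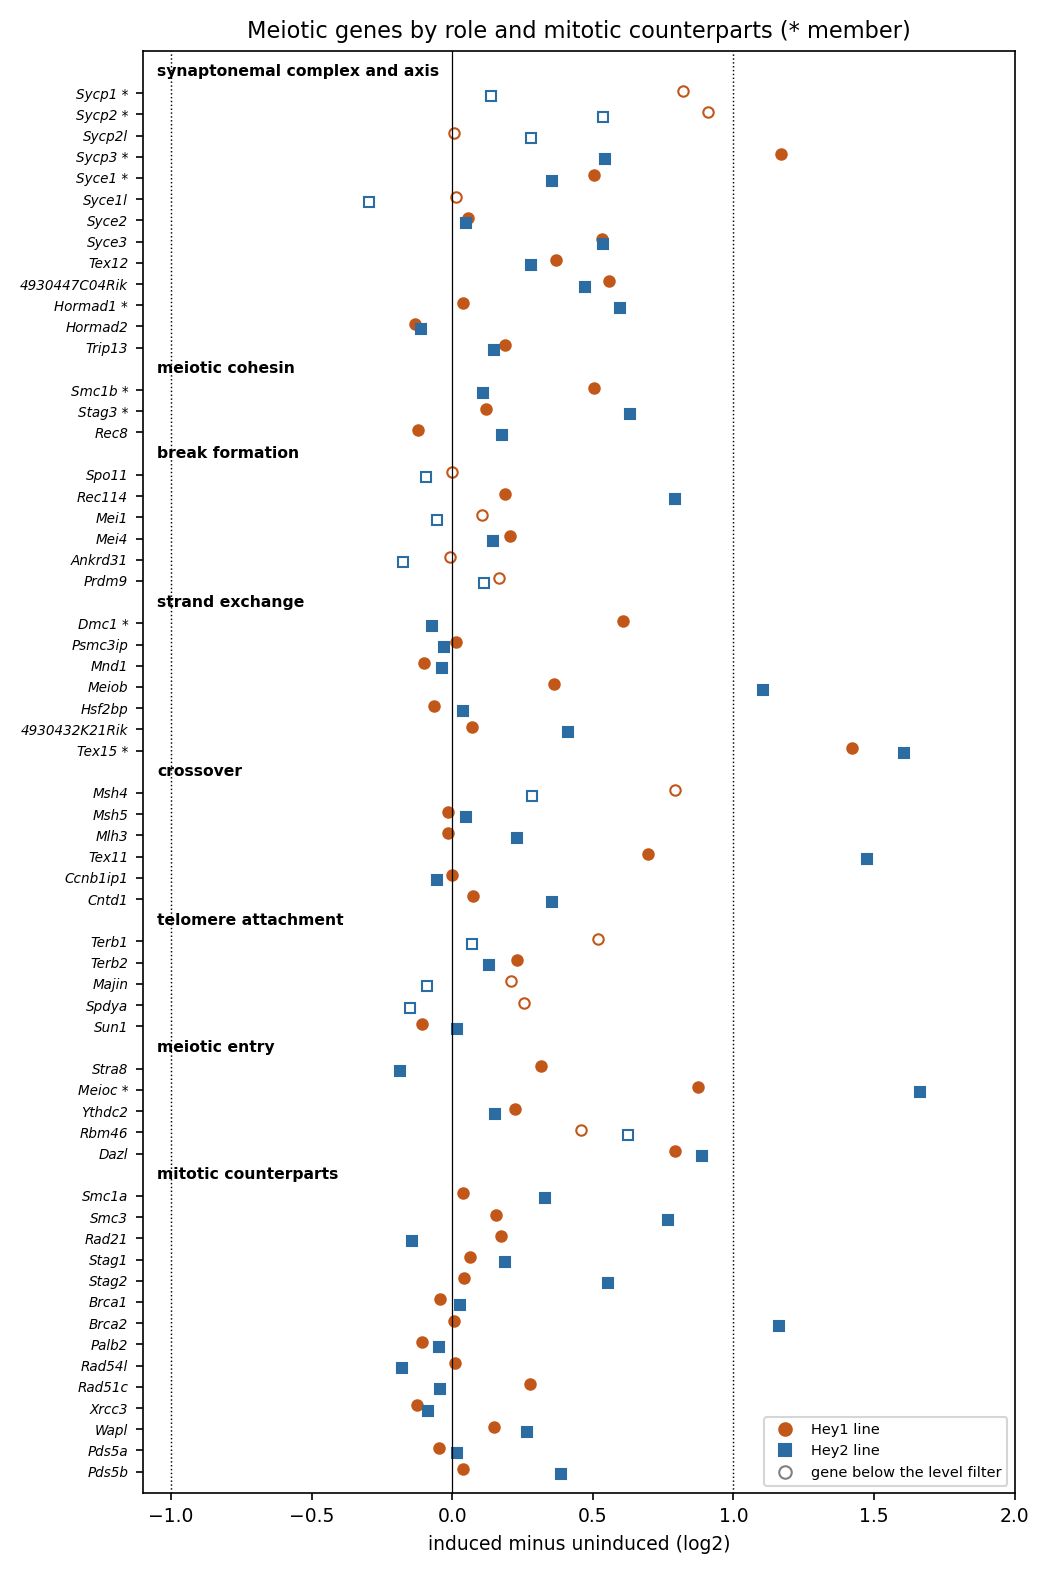
Difference within each line (labelled induced minus uninduced, log2) for the genes of each role list and for mitotic counterparts, in the Hey1 line (orange circles) and the Hey2 line (blue squares). Open symbols are genes below the level filter, asterisks mark the 10 members and dotted lines are at 2-fold. Past 2-fold outside the members lie Tex11, Meiob and Brca2, each in the Hey2 line.

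Markers of other cells were set beside these differences. Of the 7 primordial germ cell markers on the array, all were compared, and 4 were higher in both lines, beside 28.1% of all genes, with medians of 0.46 for the Hey1 and 0.23 for the Hey2 line. Dazl, counted above under meiotic entry, is 1 of these 4. Their summed level, on the log2 scale, was 11.93 in the array labelled induced and 11.58 in the uninduced array of the Hey1 line, and 11.66 and 11.49 in those of the Hey2 line. Besides Dazl, those higher in both lines were Ddx4, the germ cell helicase (0.46 and 0.65), Tfap2c (0.60 and 0.27) and Dppa3 (0.47 and 0.23). Prdm14 had -0.08 and -0.06, Dnd1 0.03 and -0.02, and Prdm1 0.24 and -0.33. Tfap2c read 10.06 in the array labelled induced of the Hey1 line, the highest of the 7 markers there, and 9.47 in the uninduced array. Of the 10 spermatocyte and spermatid markers, 3 were compared and 0 were higher in both lines. All 10 summed to 9.04 and 9.11 for the Hey1 line and 8.89 and 9.06 for the Hey2 line. Each sum in this paragraph takes in all markers of the list on the array, also those below the level filter. The fibroblast list summed to 8.92 in the array labelled induced and 8.62 in the uninduced array of the Hey1 line, and to 8.28 and 8.43 in those of the Hey2 line. Thy1 weighed most in the sums of the Hey1 line. In the same order of arrays it read 7.80 and 7.13 for the Hey1 line and 5.73 and 5.51 for the Hey2 line. The embryonic stem cell list summed to between 16.46 and 16.53 in all arrays. Of the 7 markers of differentiated embryo 3 were compared, none of them higher in either line, and Sox1, of the neural plate, was lower by more than 1.5-fold in both (-0.78 and -1.07). Its other probe set had -0.0093 and -0.36. The list summed to 8.96 in the array labelled induced and 9.28 in the uninduced array of the Hey1 line, and to 8.63 and 8.98 in those of the Hey2 line. The 3' minus 5' signal of the Tfrc control, a sign of RNA quality, was 0.84 in the array labelled induced and 0.95 in the uninduced array of the Hey1 line, and 0.96 and 0.67 in those of the Hey2 line. That of Pcx was 1.43 and 1.38 in the Hey1 line, and 1.56 and 1.33 in the Hey2 line, again with the array labelled induced first. For Actb it was 0.51 and 0.48, then 0.42 and 0.39, and for Gapdh 0.042 and 0.040, then 0.032 and 0.012, so that these 3 controls were higher in the array labelled induced of both lines. The part of these markers and of RNA quality in the differences of the meiotic genes was not tested. In bulk RNA, more cells with a transcript and more transcript per cell cannot be told apart.

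Genes whose pattern over the 4 arrays was most like the median pattern of the 10 members were sought by Euclidean distance between centred log2 values. The 5 nearest were Rbp7 (0.064), Wfdc2 (0.100), Myh3 (0.12), Zfp119b (0.13) and Reps2 (0.13). The members themselves lay between 0.19 (Sycp2) and 0.99 (Meioc) from their median pattern. The 5 genes were picked as the nearest of the genes compared, so their smaller distances say nothing about the members. The median pattern includes Sycp1 and Sycp2, which did not pass the level filter. Rbp7, a retinoid-binding protein gene, read 7.59 and 6.85 for the Hey1 line and 7.13 and 6.68 for the Hey2 line, each with the array labelled induced first. With 4 arrays, such a likeness is only a description.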

How the data were processed

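Total RNA of 4 samples was labelled with biotin and hybridised to Affymetrix arrays, 1 per group. Per the labels, the authors summarised the probe sets with RMA, which corrects background, normalises by quantiles and combines probes. The sources used here name neither its version nor the chip description file. The deposited values were read as log2 from their range (2.67 to 15.2). Sorted, the 4 columns differed by at most 0.0024, so a shift of all genes together cannot be seen. Scanner files were not used, and precision is limited by the number of arrays.

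Samples were grouped by title. Probe sets with a single symbol in the platform annotation were used, each gene was represented by its probe set with the highest mean, and a gene was compared if its highest value reached the median of all values (6.05). The difference within a line is the labelled induced value minus the uninduced value, on the log2 scale, and genes past 2-fold were counted. No test was made, since each group holds 1 array. The members, the gene lists and the cell type markers were chosen with earlier results of these data known. The naming rule took every member, list genes at 2-fold in a line or at 1.5-fold in both, and the 5 genes nearest in pattern; other list genes in the text were picked after their values were seen. Updated symbols in the lists were matched through RefSeq synonyms (GRCm38.p6). Genes of the lists with no single-symbol probe set were not analysed here. Alternatives were the level filter, the probe set rule, an offset of 32, cyclic loess (limma 3.58.1 in R 4.3.3), the other line's uninduced array and a 1.5-fold threshold. The code that forms the differences was checked on values with known differences put in. That check says nothing about the differences reported here. Python 3.11.15 with numpy 2.4.6, pandas 2.3.3 and matplotlib 3.10.9 was used.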

Additional observations from a re-analysis of the deposited data

Results flagged for a closer look

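Dmc1 was higher in the array labelled induced of the Hey1 line (0.61 on the log2 scale) and slightly lower in that of the Hey2 line (-0.071) at its brighter probe set, and is listed because the single arrays of the lines moved in opposite directions. The difference between the lines was not tested. At its other probe set both lines were higher (0.50 and 0.75).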

How the results depend on the processing

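The counts of members at 2-fold kept their values (2 in the Hey1 line, 2 in the Hey2 line and 1 in both) without the level filter, with probe sets of a gene averaged, with the dimmer probe set, with the offset of 32 and with cyclic loess, and Tex15 was the member past 2-fold in both lines under each of these. Dmc1 alone has more than 1 probe set and is below 2-fold at each, so the probe set rules could not change these counts. With a stricter filter, at 8.31 (the upper quartile of the values), only 3 members were left, with counts of 1, 0 and 0. At 1.5-fold the counts were 4, 4 and 2, where 1.84%, 3.02% and 0.769% of all genes passed. With the uninduced array of the other line as the reference they were 4 for the Hey1 line (Hormad1, Meioc, Smc1b and Tex15, with Sycp3 no longer among them) and 1 for the Hey2 line (Tex15), while 252 and 135 of all genes passed, against 53 and 83 with the line's own, and the median differences of the members compared became 1.08 and 0.31, against 0.56 and 0.57 with the line's own. Without the level filter the Hey1-line median was 0.71. Of the 20 single differences of members, 13 moved by more than the spread over all genes under the other line's reference and 3 were then below 0 (Hormad1, Smc1b and Dmc1 in the Hey2 line). With the offset 6 moved, with either other probe set rule 1 (Dmc1 in the Hey2 line, then above 0) and with cyclic loess 0, and none of those past 2-fold changed sign under any alternative run. Between the arrays labelled induced 1 member was 2-fold apart, against 2 between the uninduced arrays. Apart from the construction of these alternatives (fewer genes, another array), the cause was not tested. A fit with the line as a block was not made, since the members were chosen on this contrast and get no test of it. Leaving out an array would leave a line with no difference, so it was not run. Background signal was not measured here, so it is not known how far the dimmest members, Sycp1 and Sycp2, stood above it.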
